A study of Mus musculus with 9 samples.

Results

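Respiratory chain assembly factors are proteins that help to build the complexes of oxidative phosphorylation and are not part of the finished enzymes. A list of 37 such genes was examined, and 35 of them had a probe set that the platform annotation pairs with their symbol alone, among 18193 genes with such a probe set. They comprised 13 factors for complex I, 2 for complex II, 3 for complex III, 14 for complex IV (cytochrome c oxidase) and 3 for ATP synthase. Taco1 and Cox14 were not analysed here, Cox14 because its probe set is also annotated to a second gene. RNA came from the left ventricle of male C57BL/6 mice, 5 with sham operations and 4 with transaortic constriction (TAC), a narrowing of the aorta used to induce heart failure. Both groups were sampled 6 weeks after surgery, carried no transgene or deletion in the labels, and each sample was 1 Affymetrix array. The labels give no age and do not say whether RNA was pooled, so the p-values speak only of the spread among these 9 arrays, which may be technical.

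Each oxidative phosphorylation complex is put together in the inner mitochondrial membrane from subunits of nuclear and mitochondrial origin, together with haem, copper, flavin and iron-sulfur clusters. Assembly factors hold early intermediates, modify single subunits or insert these cofactors, and many were found as disease genes in isolated complex deficiencies. The heart depends on oxidative phosphorylation for most of its ATP, and inherited defects in several of these factors, among them Sco2, Cox15, Acad9 and Tmem70, cause cardiomyopathy.

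Most of the measured assembly factors lay lower after TAC than after sham surgery, by small amounts, and 1 complex IV factor stood out in the other direction. In limma, at a Benjamini-Hochberg adjusted p below 0.05 over all genes tested, 12 of the 35 genes fell, 2 rose and 21 did not pass. Cox10, which makes the first intermediate of haem A, fell by 31.4%. The complex I factor gene Ecsit fell by 23.4% and Ndufaf6 fell by 22.8%. Cox19, a factor of the copper pathway, rose 1.67-fold. Over all genes tested 25.1% were called, 12.3% lower and 12.8% higher, against 34.3% and 5.71% of the assembly factors. Among the 9096 genes brighter than the median gene, where 34 of the 35 assembly factors lie, 19.1% were called lower and 17.5% higher. In tissue RNA, fewer cells of a type and less RNA per cell cannot be told apart.

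The calls of 5 genes held under every processing alternative tried, and the promoters of 4 of them are shown first, 3 lower and Cox19 higher. No window was used here for the fifth, Tmem70, which was called lower. Of the 5, only Cox10 had several probe sets, so the choice of probe set could alter Cox10 alone. The genes were chosen after the values were seen. Each window runs from 250 bases before to 50 after the start site, 5′ to 3′ in the direction of the gene, as given by RefSeq. Capitals mark the letters CCGGAAG, read by ETS factors such as GABP, and AAGATGGC, read by YY1, on either strand. Both factors are textbook regulators of nuclear genes for mitochondrial proteins.
Cox10 (GRCm38.p6 chr11:64079423-64079722, minus strand): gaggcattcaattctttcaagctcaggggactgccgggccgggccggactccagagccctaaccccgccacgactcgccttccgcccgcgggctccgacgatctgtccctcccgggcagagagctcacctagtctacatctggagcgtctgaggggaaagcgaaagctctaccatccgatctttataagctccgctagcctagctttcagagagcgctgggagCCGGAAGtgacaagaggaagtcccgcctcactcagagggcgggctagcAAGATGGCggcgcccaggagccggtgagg
Ecsit (GRCm38.p6 chr9:22085378-22085677, minus strand): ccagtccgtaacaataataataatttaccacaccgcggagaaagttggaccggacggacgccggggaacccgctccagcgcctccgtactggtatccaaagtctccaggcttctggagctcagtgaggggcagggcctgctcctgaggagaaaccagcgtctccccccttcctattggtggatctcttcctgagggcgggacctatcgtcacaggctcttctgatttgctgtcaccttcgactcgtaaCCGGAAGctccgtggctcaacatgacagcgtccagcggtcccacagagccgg
Surf1 (GRCm38.p6 chr2:26916481-26916780, minus strand): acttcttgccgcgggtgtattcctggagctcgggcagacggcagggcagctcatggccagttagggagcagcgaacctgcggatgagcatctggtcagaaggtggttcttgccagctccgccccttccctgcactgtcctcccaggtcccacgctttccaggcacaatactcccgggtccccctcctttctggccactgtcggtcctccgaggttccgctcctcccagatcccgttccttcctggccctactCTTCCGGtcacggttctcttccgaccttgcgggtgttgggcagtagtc
Cox19 (GRCm38.p6 chr5:139345117-139345416, minus strand): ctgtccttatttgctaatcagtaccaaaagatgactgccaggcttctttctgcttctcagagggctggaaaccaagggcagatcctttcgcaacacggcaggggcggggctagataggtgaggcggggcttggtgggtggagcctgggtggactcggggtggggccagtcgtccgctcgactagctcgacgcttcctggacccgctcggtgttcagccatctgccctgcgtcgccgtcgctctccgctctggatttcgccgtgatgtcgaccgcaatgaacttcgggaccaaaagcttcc
The windows of Cox10, Ecsit and Surf1 hold the ETS letters at -27, -2 and 3 relative to the start site, that of Surf1 on the opposite strand, and Cox10 also holds the YY1 letters at 22. The window of Cox19 holds none of the letters searched.

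Promoter windows were found for 29 of the 35 genes, 31 windows in all. CCGGAAG occurred in 13 of the 31 windows (41.9%), against 11.6% of 21262 windows of protein-coding genes and 8.86% of all 32851 windows. It was present in 6 of 11 windows of genes called lower, 0 of 2 windows of genes called higher and 7 of 18 windows of genes not called. Windows and not genes are counted here, and Cox16, called lower, holds the letters in separate windows. AAGATGGC occurred in 4 windows (12.9%, against 3.05% of protein-coding windows), and CGCATGCG, the core of the palindrome read by NRF1, in those of Ndufaf4, Ndufaf5 and Ttc19 (9.68%, against 2.52%). The AAGGTCA core read by oestrogen-related receptors was in 0 of the 31 windows and in 4.08% of protein-coding windows. All motifs were searched on both strands, and the only matches that overlapped were a pair of ETS matches on opposite strands of the Timmdc1 window. Member windows had a median G and C content of 62.0%, against 56.3% for protein-coding windows, so base composition differs as well. These matches are letters in a window and not measured binding.

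Values below are RMA values on a log2 scale, and every difference is TAC minus sham on that scale, and SE is its standard error from limma. Across the 35 genes the median difference was -0.12, against 0.00 over all genes tested, and 27 genes were negative. Relative to the sham mean of each gene, the median of the 35 genes was -0.11, -0.14, -0.16 and -0.10 in the 4 TAC arrays, and 0.01, -0.06, 0.03, 0.02 and 0.02 in sham replicates 1 to 5. The TAC arrays therefore lay below each sham array on this median. Sham replicate 2 was the lowest sham array for 18 of the 35 genes, and without it 12 genes still passed as lower and 2 as higher, with a median of -0.15. All 4 TAC values lay below all 5 sham values for 12 genes and above them for 5, against 12.2% and 13% of all genes. The differences were small: the median size among the 14 called genes was 0.27, against 0.47 among all called genes. The median SD of a gene was 0.07 in each group, and the SE ran from 0.05 to 0.12.

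**Figure D1:**
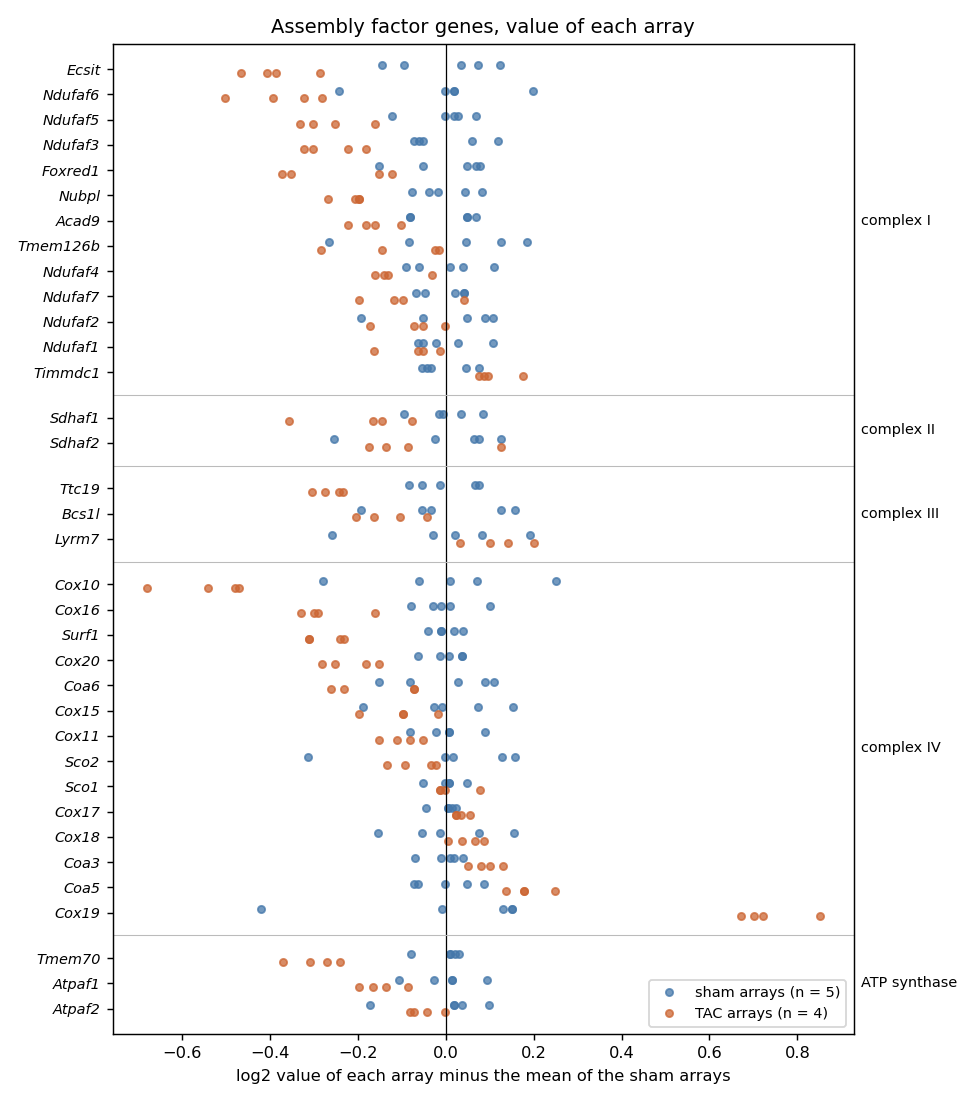
Each row is 1 assembly factor gene, grouped by complex, and each point is 1 array, plotted as its log2 value minus the mean of the 5 sham arrays. The 4 TAC points of Cox10 and Ecsit lie to the left of all sham points, and those of Cox19 lie to the right of them, beyond the low value of sham replicate 2.

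Of the 13 complex I factor genes 6 fell (46.2%), 0 rose and 7 did not pass, with a median of -0.16 and 12 negative differences. Over all genes tested 12.3% were called lower, and 9238 of 18193 had negative differences. Among genes brighter than the median gene 19.1% were called lower. At an unadjusted p below 0.05, 0 of the 13 were higher in limma, and with trended, robust variances 0 passed as higher. The count of genes that fell was 3 without TAC replicate 3, and 4 to 6 without any other array. Without TAC replicate 3, 18.6% of all genes were called, against 25.1% with all arrays. Complex I is built from modules, a membrane arm and a matrix arm, that are made apart and then joined.

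Ecsit, Ndufaf1, Acad9 and Tmem126b encode the core of the complex that assembles the membrane arm, and Timmdc1 works beside them. Ecsit read 10.99, 10.81, 10.86, 11.03 and 11.08 in sham and 10.55, 10.57, 10.49 and 10.67 in TAC. The groups did not overlap, and the difference was -0.38 (SE 0.07, limma adjusted p = 0.00389). Ecsit also encodes an adaptor of Toll-like receptor signalling. Acad9, an acyl-CoA dehydrogenase relative that has taken on an assembly role, read 9.68, 9.68, 9.81, 9.81 and 9.83 in sham and 9.54, 9.60, 9.58 and 9.66 in TAC. These values did not overlap, but the difference of -0.16 did not pass (SE 0.06, limma adjusted p = 0.0858), and its other probe sets differed by -0.43 and 0.03. It did pass with array weights (adjusted p = 0.0184), among genes above the median (0.0330) and after median centring (0.0313). Ndufaf1 differed by -0.07 with a 95% interval of -0.22 to 0.07. Tmem126b was at -0.12, with an interval of -0.34 to 0.11. Timmdc1 was the 1 complex I factor gene with a positive difference, 0.11, with an interval of -0.02 to 0.24. Its TAC values of 10.12 to 10.22 sat just above the sham values of 9.99 to 10.12. Among these 5 partners 1 passed the threshold, as lower, and 4 did not. That share of 20.0% was near the 19.1% called lower among genes brighter than the median gene.

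The remaining complex I factors act on the matrix arm or on later steps, and 5 of the 8 fell (62.5%). Among genes brighter than the median gene 19.1% were called lower. Whether these 8 genes differ from the 5 partners above was not tested. Ndufaf6, a factor of early complex I assembly, read 9.81, 9.57, 9.83, 9.83 and 10.01 in sham and 9.49, 9.53, 9.42 and 9.31 in TAC, a difference of -0.37 (SE 0.09, limma adjusted p = 0.0121). Every TAC array was below the lowest sham array, replicate 2. Ndufaf5 encodes a hydroxylase of the matrix arm subunit Ndufs7. It read 10.44, 10.47, 10.51, 10.46 and 10.32 in sham and 10.19, 10.14, 10.28 and 10.11 in TAC, a difference of -0.26 (SE 0.07, limma adjusted p = 0.0150). The groups did not overlap. Ndufaf3, a partner of Ndufaf4 on an early intermediate, read 10.99, 10.81, 10.82, 10.93 and 10.80 in sham and 10.69, 10.65, 10.55 and 10.57 in TAC. It differed by -0.26 (limma adjusted p = 0.0180), and it no longer passed without TAC replicate 3 (-0.23, adjusted p = 0.0599).

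Nubpl, which delivers iron-sulfur clusters to complex I, read 10.83, 10.77, 10.87, 10.75 and 10.71 in sham and 10.52, 10.59, 10.59 and 10.58 in TAC. The groups did not overlap and the difference was -0.22 (limma adjusted p = 0.0227), but the call ended without sham replicate 3 or TAC replicate 1, 2 or 3, with adjusted p from 0.0508 to 0.0715. Foxred1, a flavin-binding factor of late assembly, read 10.60, 10.37, 10.47, 10.57 and 10.59 in sham and 10.37, 10.15, 10.17 and 10.40 in TAC. Here TAC replicate 4 lay above sham replicate 2, so the groups overlapped, and the difference of -0.25 passed narrowly (limma adjusted p = 0.0450). That call ended with cyclic loess (0.0537) and without any array other than sham replicate 2 or TAC replicate 4, with adjusted p from 0.0547 to 0.130. The other 3 genes of this group did not pass: Ndufaf4 at -0.11, the methyltransferase gene Ndufaf7 at -0.09 and Ndufaf2, whose protein binds a late intermediate, at -0.08. The second probe set of Ndufaf4 was nearly as bright as the one used, with a mean of 11.48 against 11.52. It read 11.57 to 11.77 in sham and 11.22 to 11.34 in TAC, a difference of -0.39 (limma adjusted p over all probe sets = 0.00273). With the mean of both its probe sets Ndufaf4 differed by -0.25 and passed (adjusted p = 0.00688).

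**Figure D2:**
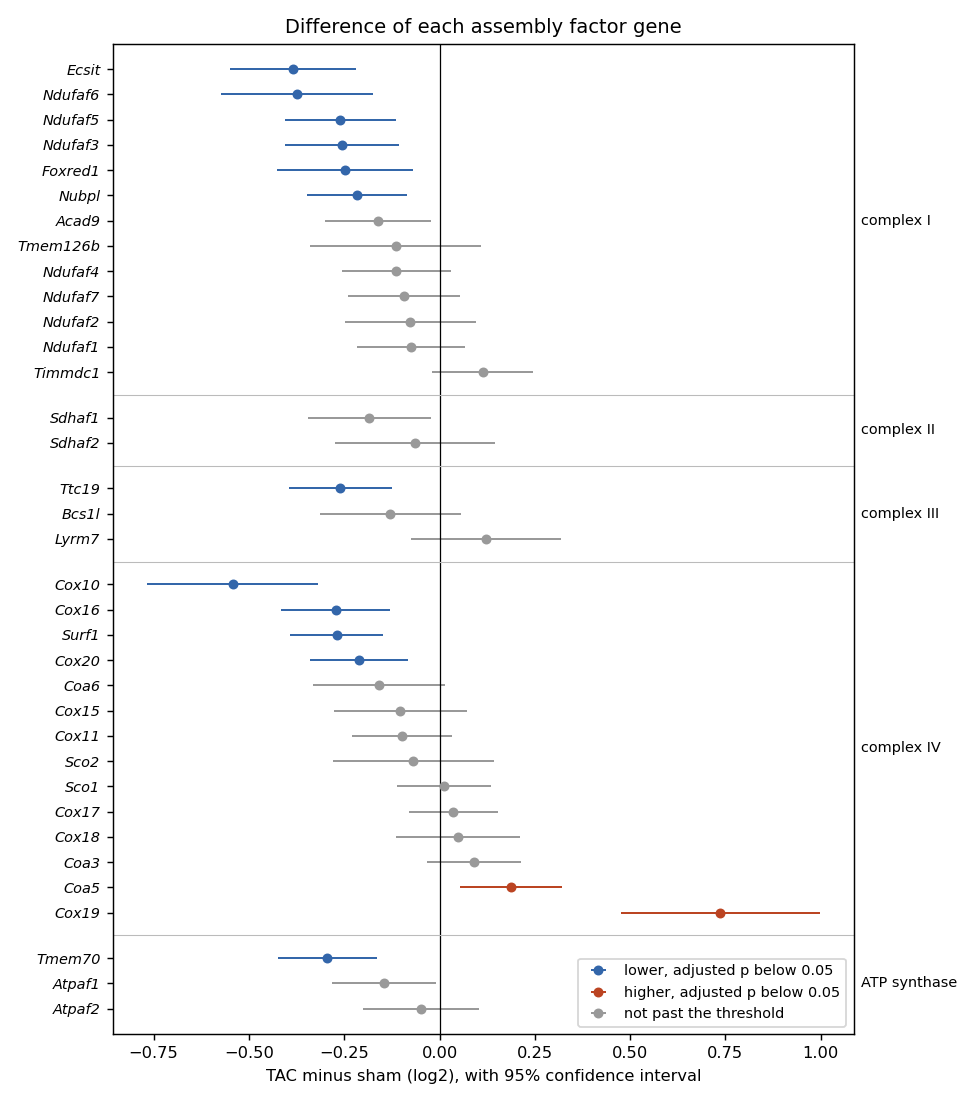
Points give the TAC minus sham difference of each assembly factor gene on the log2 scale and bars its 95% confidence interval from limma, with colour for the side of the threshold. Blue points from Cox10 at -0.54 to Cox20 at -0.21 mark the 12 genes that fell, and Coa5 at 0.19 and Cox19 at 0.74 are the 2 that rose.

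Complex II and complex III have few dedicated factors. Sdhaf1 helps to place iron-sulfur clusters in the subunit Sdhb, and Sdhaf2 attaches flavin to Sdha. Neither passed: Sdhaf1 was at -0.18 (SE 0.07, limma adjusted p = 0.0916) and passed with array weights (adjusted p = 0.0292), among genes above the median (0.0414) and after median centring (0.0263). Sdhaf2 was at -0.06, with its other probe set at 0.16 and the mean of both at 0.05. Of the 3 complex III genes, Ttc19, which clears fragments of the Rieske protein from the complex, fell. It read 10.19, 10.22, 10.35, 10.34 and 10.26 in sham and 10.00, 10.04, 9.97 and 10.03 in TAC, a difference of -0.26 (SE 0.06, limma adjusted p = 0.0102). Its other probe sets were lower too, by -0.41 and -0.52, each with no overlap between the groups (limma adjusted p over all probe sets = 0.00247 and 0.00439). The genes of the translocase that inserts the Rieske protein, Bcs1l, and of a chaperone of that protein, Lyrm7, did not pass, at -0.13 (interval -0.31 to 0.06) and 0.12 (interval -0.08 to 0.32). Lyrm7 was the 1 assembly factor below the brightness of the median gene, with values of 5.74 to 6.20.

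Complex IV factors went in both directions: of 14 genes 4 fell (28.6%), 2 rose (14.3%) and 8 did not pass, with a median of -0.08. Over all genes tested 12.3% were called lower and 12.8% higher. Among genes brighter than the median gene these shares were 19.1% and 17.5%, so the share that rose was near that of genes in general. The catalytic core of cytochrome c oxidase carries haem A and copper, and its factors can be sorted by these tasks.

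Both genes of haem A synthesis were negative and 1 passed. Cox10, the farnesyltransferase that makes haem O, read 10.77, 10.48, 10.70, 10.83 and 11.01 in sham and 10.29, 10.22, 10.08 and 10.28 in TAC. All TAC arrays lay below the lowest sham array, replicate 2, and the difference was -0.54 (SE 0.10, limma adjusted p = 0.00307), or -0.61 without that array. The second probe set of Cox10 differed by -0.46, again with no overlap (limma adjusted p over all probe sets = 0.00591), and the third, dim at a mean of 5.73, by -0.13. Cox15, which turns haem O into haem A, was at -0.10 with an interval of -0.28 to 0.07. Its other probe sets were at -0.22, -0.09 and 0.06, and each overlapped between the groups.

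Of 6 copper pathway genes 1 rose (16.7%), 0 fell and 5 did not pass, with a median of -0.03. The share that rose was near that of genes in general. It was 12.8% over all genes tested and 17.5% among genes brighter than the median gene. At an unadjusted p below 0.05 limma found 0 of the 6 lower. Cox19, a soluble protein of the intermembrane space that acts with Cox11 in copper handling, read 11.03, 10.46, 10.87, 11.01 and 11.03 in sham and 11.55, 11.60, 11.58 and 11.73 in TAC. The groups were far apart, with the lowest TAC array above the highest sham array, and the difference was 0.74 (SE 0.12, limma adjusted p = 0.00119). Sham replicate 2 had the lowest value, and without it the difference was 0.63 (adjusted p = 0.000138). Cox19 had 1 probe set, so no other probe set could be compared. The copper chaperone gene Cox17 averaged 13.28 in sham and 13.31 in TAC, a difference of 0.04 with an interval of -0.08 to 0.15. It was the 1 assembly factor gene brighter than 13, and its groups did not overlap only beyond the second decimal. Sco1 and Sco2, which pass copper to the second subunit, encoded in mitochondrial DNA, were at 0.01 (interval -0.11 to 0.13) and -0.07 (interval -0.28 to 0.14). Cox11, the partner of Cox19, was at -0.10 and Coa6 at -0.16 with an interval of -0.33 to 0.01. So Cox19 alone of this group passed, and the difference between Cox19 and its partners was not tested.

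Several of the remaining complex IV factors act on single subunits, and of the 6 measured in this group 3 fell. Surf1, whose loss causes Leigh syndrome, read 11.62, 11.56, 11.59, 11.64 and 11.59 in sham and 11.36, 11.29, 11.29 and 11.37 in TAC. Both groups were tight and apart, and the difference was -0.27 (SE 0.05, limma adjusted p = 0.00495). Cox16, a factor for the copper-bearing second subunit, read 9.09, 9.0, 9.18, 9.07 and 9.05 in sham and 8.92, 8.79, 8.75 and 8.78 in TAC, a difference of -0.27 (limma adjusted p = 0.0111). Its dimmer probe sets were at -0.14 and 0.19, and with the mean of all 3 the difference was -0.07 and did not pass (adjusted p = 0.733). Cox20, a chaperone of the same subunit, read 12.12, 12.17, 12.22, 12.19 and 12.22 in sham and 12.00, 11.90, 11.93 and 12.03 in TAC, a difference of -0.21 (limma adjusted p = 0.0219). The call ended without sham replicate 3 or 4 or TAC replicate 2 or 3, with adjusted p from 0.0501 to 0.0722, while its dimmer probe set differed by -0.58 (limma adjusted p over all probe sets = 0.00279). In the other direction, Coa5, needed for complex IV by a mechanism that is not settled, read 12.14, 12.30, 12.26, 12.15 and 12.21 in sham and 12.35, 12.39, 12.46 and 12.39 in TAC. The groups did not overlap and the difference was 0.19 (limma adjusted p = 0.0450). That call ended on leaving out any array but sham replicate 2, with adjusted p from 0.0631 to 0.124, and with median centring (0.225). It also ended with probe sets below 13 (0.0524). There Coa5 kept the same probe set and difference, and only its SE changed, from 0.060 to 0.063. The second probe set of Coa5 differed by 0.38, with no overlap (limma adjusted p over all probe sets = 0.00924). Coa3, a factor for the first subunit, was at 0.09 and the membrane insertase gene Cox18 at 0.05, and neither passed.

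Of the 3 ATP synthase factor genes 1 fell and all were negative. Tmem70, which helps to form the ring of c subunits and also takes part in complex I assembly, read 11.19, 11.09, 11.20, 11.18 and 11.18 in sham and 10.93, 10.80, 10.86 and 10.90 in TAC. No TAC array reached the lowest sham array, and the difference was -0.29 (SE 0.06, limma adjusted p = 0.00429). Atpaf1, a chaperone of the beta subunit, was at -0.15 and did not pass (limma adjusted p = 0.117). Its second probe set read 10.34 to 10.69 in sham and 9.99 to 10.25 in TAC, a difference of -0.46 (limma adjusted p over all probe sets = 0.00611), and the mean of both passed at -0.30 (adjusted p = 0.00374). The brightest probe set of Atpaf1 also passed among genes above the median gene (limma adjusted p = 0.0482), with trended robust variances (0.0448) and with array weights (0.0352). Atpaf2, a chaperone of the alpha subunit, was at -0.05 with an interval of -0.20 to 0.10.

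**Figure D3:**
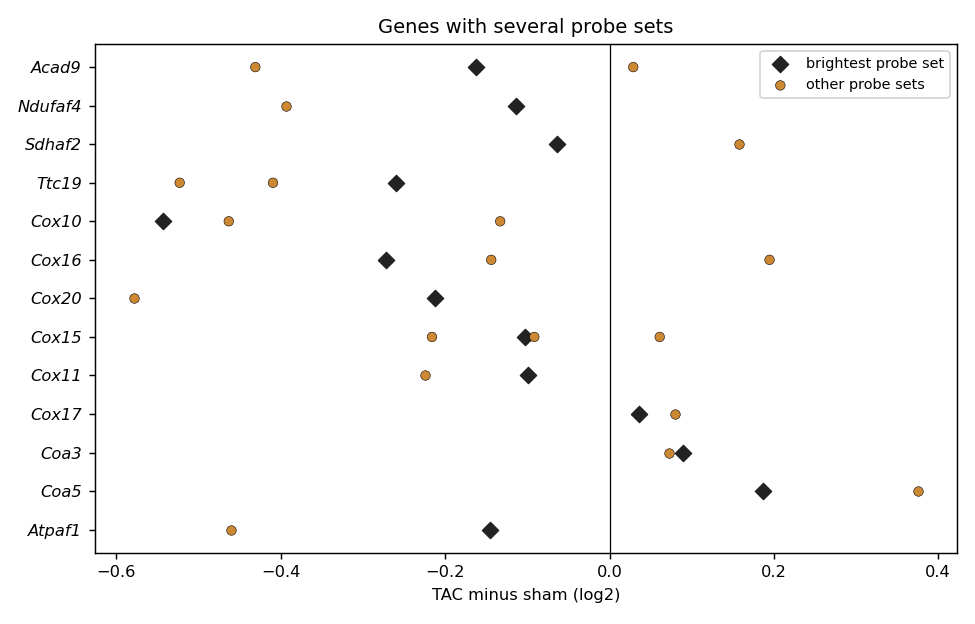
Differences (TAC minus sham, log2) of every probe set of the 13 genes that have several, with diamonds for the brightest probe set and circles for the others. All probe sets of Ttc19, Cox10, Cox20 and Atpaf1 lie left of 0 and both of Coa5 lie right of it, whereas those of Sdhaf2, Cox16, Cox15 and Acad9 fall on both sides.

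Probe sets of the same gene differed in size. The 35 genes had 54 probe sets, 22 genes with 1 and 13 with several. Of the 19 probe sets that were not the brightest, 15 had the sign of the brightest and 4 the opposite sign. By limma over all probe sets, 6 of the 19 were called lower and 1 higher, against 8.86% and 8.87% of all probe sets. The 4 opposite ones belonged to Acad9, Cox15, Cox16 and Sdhaf2, and none of them passed. By the maker's suffixes, the brightest probe sets of Ndufaf7, Coa3, Cox17 and Sco2 hold probes shared by several transcripts, and that of Cox15 holds probes that may bind others.

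Other genes of the same pathway were set beside the listed factors. Of 22 further assembly genes measured, 12 fell (54.5%), 0 rose and 10 did not pass, with a median of -0.23. Over all genes tested 12.3% were called lower, and 19.1% among genes brighter than the median gene. At an unadjusted p below 0.05 limma found 1 of the 22 higher. Tmem177, which works with Cox20, read 8.15 to 8.44 in sham and 7.60 to 7.71 in TAC, a difference of -0.65 (SE 0.08, limma adjusted p = 0.000237), or -0.42 with the mean of both its probe sets. Fmc1, a factor for the catalytic head of ATP synthase, differed by -0.56 (SE 0.08, limma adjusted p = 0.000455). Lrpprc, which keeps mitochondrial messenger RNA stable, differed by -0.46 (SE 0.07, limma adjusted p = 0.000600). In all 3 genes the groups did not overlap.

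Of 12 genes for iron-sulfur clusters, the cofactor that Nubpl and Sdhaf1 handle, 4 fell (33.3%), 0 rose and 8 did not pass. Their median was -0.15. The share called lower was 12.3% over all genes tested and 19.1% among genes brighter than the median gene. At an unadjusted p below 0.05 limma found 0 of the 12 higher. The ferredoxin gene Fdx1 fell by 0.36 (limma adjusted p = 0.00217). The cysteine desulfurase gene Nfs1 fell by 0.39 (limma adjusted p = 0.00233), but with the mean of its 3 probe sets the difference was -0.15 and did not pass (adjusted p = 0.0898). Glrx5 at -0.20 and the scaffold gene Iscu at -0.24 passed narrowly, and both lost the call with cyclic loess (0.0686 and 0.0786). Glrx5 also lost it without any 1 array but TAC replicate 4, and Iscu without any 1 array but sham replicate 2, with adjusted p up to 0.119 and 0.138. Among 15 regulators of mitochondrial biogenesis 4 fell (26.7%, against the same 12.3% and 19.1%), 0 rose and 11 did not pass, with a median of -0.21. Besides Ppara and Esrra, the coactivator gene Ppargc1a fell by 0.85 (SE 0.11) and Polrmt, the mitochondrial RNA polymerase, by 0.37 (SE 0.08). Of these 15, limma found 1 higher at an unadjusted p below 0.05.

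The subunits that the factors assemble were mostly lower as well. Of 76 nuclear subunit genes measured 30 fell (39.5%), 0 rose and 46 did not pass, with a median of -0.15. For the assembly factors these values were 34.3% lower and a median of -0.12, and 12.3% of all genes tested were called lower. Without adjustment limma found 1 of the 76 higher at p below 0.05. It was Atpif1 at 0.19, listed with the subunits although it encodes an inhibitor of ATP synthase. By complex the medians of factors and subunits were -0.16 and -0.17 for complex I, -0.12 and -0.20 for complex II, and -0.13 and -0.17 for complex III. They were -0.08 and -0.15 for complex IV and -0.15 and -0.11 for ATP synthase. The differences of the complex IV factors ran from -0.54 to 0.74, and 6 of 14 were positive, whereas all 14 complex IV subunit genes measured were negative. Of those 6 factors, Sco1 at 0.01, Cox17 at 0.04 and Cox18 at 0.05 turned negative with median centring. Brightness differs between the lists: 61 of the 76 subunit genes averaged above 13, where the upper end of the scale is near, against 1 of the 35 factors. With probe sets below 13, 17 of 37 subunit genes fell and their median was -0.28. Whether factors and subunits differ was not tested.

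**Figure D4:**
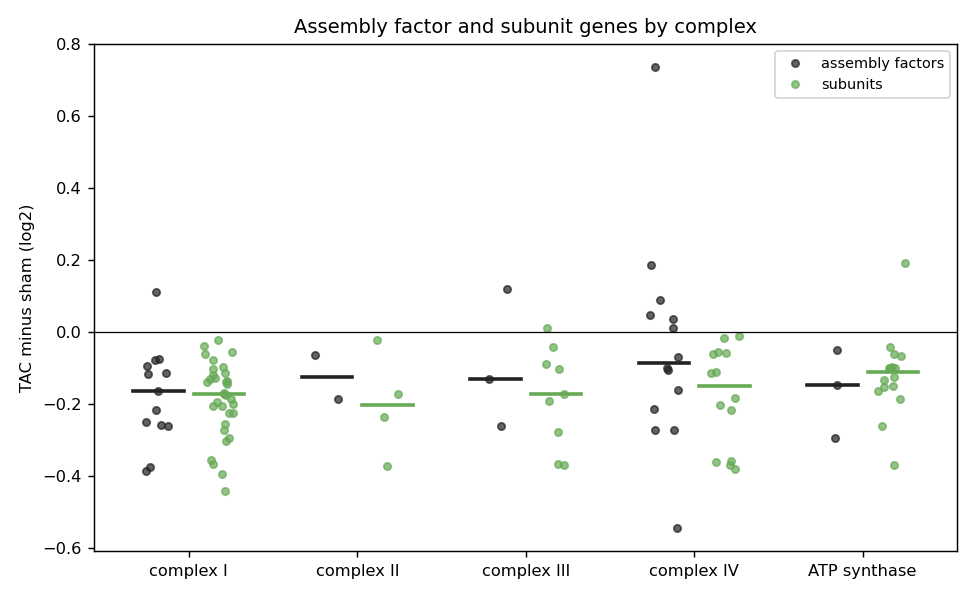
Each point is the TAC minus sham difference of 1 gene on the log2 scale, for assembly factors (dark) and subunits (green) of each complex, and bars are medians. The points of complex IV factors reach from -0.54 to 0.74, while the subunits of that complex lie below 0.

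Markers of some other cell types differed between the groups as well. Cardiomyocyte markers were bright in every array of the labelled tissue, with mean levels of 14.28 to 14.29 in sham and 14.26 in each TAC array over 12 genes, of which 1 fell and 0 rose (1 was higher at an unadjusted p below 0.05 in limma). All 12 were brighter than 13, and with probe sets below 13 the median of the 6 measured was -0.28 and 3 fell. Of 10 fibroblast markers 8 rose (80.0%), and their mean level was 10.23 to 10.59 in sham and 11.06 to 11.36 in TAC. Among 10 macrophage and leukocyte markers 6 rose (60.0%), with mean levels of 7.96 to 8.30 and 8.58 to 8.78. Over all genes tested 12.8% were called higher and 12.3% lower. Endothelial markers overlapped, at 10.03 to 10.42 and 10.14 to 10.29 (1 of 10 rose and 1 fell), as did smooth muscle and pericyte markers, at 10.62 to 10.83 and 10.57 to 10.73 (3 rose and 4 fell of 10). Of 4 adipocyte markers 0 passed, at 4.25 to 4.46 and 4.13 to 4.24, and at an unadjusted p below 0.05 limma found 1 of them lower. The part of these markers in the results was not tested.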

How the data were processed

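Affymetrix arrays of left ventricular RNA from 5 sham and 4 TAC samples were used. Values are log2 RMA values deposited by the authors, as the submitters' processing notes name RMA. The version, software and genome build are not given in the sources used here. All arrays share 1 distribution of values (2.2511 to 14.799, median 6.5661), so a general change in RNA cannot be seen, and the number of arrays limits the precision. Of 45101 probe sets, 34945 had 1 gene symbol in the platform annotation, and the brightest by mean over all arrays stood for each of 18193 genes. TAC was compared with sham in limma 3.58.1 under R 4.3.3 (lmFit, eBayes, two-sided, 7 residual and 3.27 prior degrees of freedom, Benjamini-Hochberg over all genes). Probe sets were adjusted over all 45037 that are not controls. The fit was tested on simulated data. Sequences came from RefSeq (GRCm38.p6). Replicates are numbered in accession order.

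The members and lists were chosen with earlier results of these data known. All measured members are named, and of the 3 other pathway lists up to 3 called genes with the smallest p, or all where 5 or fewer were called. Alternatives were the mean of probe sets, probe sets below 13, bright genes, trended robust variances, array weights, median centring, cyclic loess, a threshold of 0.01 and each array left out.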

Additional observations from a re-analysis of the deposited data

Results flagged for a closer look

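Within each group of each gene, the gap between the highest or lowest array and its neighbour was set against the range of the group, with Dixon's 95% critical value for that number of arrays. In 70 such groups 6 arrays stood apart, and chance gives about 1 in 20. Sham replicate 2 was the low array for Cox19 (10.46, next 10.87), Tmem70 (11.09, next 11.18) and Atpaf2 (8.52, next 8.71). Sham replicate 1 was low for Cox17 (13.23, next 13.28). TAC replicate 1 was low for Nubpl (10.52, next 10.58), and TAC replicate 2 was high for Sco1 (9.26, next 9.18).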

How the results depend on the processing

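No paired analysis was possible because the labels give no replicate numbers or pairing. Of the 14 called genes, 5 (Ecsit, Cox10, Surf1, Tmem70 and Cox19) kept their call under all 17 alternatives, 9 kept it without each array in turn, and 0 changed sign. Ecsit, Surf1, Tmem70 and Cox19 had 1 probe set each, so the mean of probe sets and probe sets below 13 left their values unchanged. Probe sets below 13 left Cox10 at -0.54 as well. Among the 5, the choice of probe set was thus tested only for Cox10, by the mean of probe sets (-0.38). An adjusted p below 0.01 left 4 genes lower (1 for complex I, 2 for complex IV) and 1 higher, with 14.3% of all genes called. The count of genes that rose was also 1 with probe sets below 13 and with median centring, which moved the median of the factors to -0.17. Over all genes that centring turned 2233 lower and 2333 higher calls into 2908 and 1978. Leaving out 1 array gave 8 to 12 genes lower, 1 to 2 higher, 3 to 6 lower for complex I, 3 to 4 lower for complex IV and medians of -0.15 to -0.11. The share of all genes called also varied, from 18.6% without TAC replicate 3 to 27% without sham replicate 2, against 25.1% with all arrays. Signs turned only in genes that were not called. The mean of probe sets gave 0.047 for Sdhaf2, median centring gave -0.015 for Cox17, -0.0023 for Cox18 and -0.039 for Sco1, and Sco1, at -0.0023 without sham replicate 2 and -0.0097 without TAC replicate 2, ran up to 0.023 without sham replicate 4. The causes were not tested. Over 594 values of single genes, 37 lost and 11 gained a call. The number of arrays limits the precision.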
